A study of Mus musculus with 5 samples.

Results

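The genes described here are the immediate early genes *Egr1*, *Fos*, *Fosb*, *Jun*, *Junb*, *Atf3*, *Ier2*, *Ier3*, *Dusp1* and *Nr4a1*, which are 10 of the 28693 features counted in a time series of lung injury. They were chosen by gene symbol after *Egr1* had been seen at a lower level in alveolar macrophages (AMs) of day 3 than of sham, so that this contrast in AMs is a description and supports nothing. The question was whether the lower level was shared across the cell types of the same libraries, as a difference in handling would give.

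Lungs came from adult *Ms4a3-CreER;R26-tdT* mice on a mixed genetic background, in which the Ms4a3 promoter drives a tamoxifen-dependent Cre in monocyte precursors and Cre switches on the tdTomato reporter. The sham library was from PBS-treated lungs, and 4 further libraries were from lungs taken at day 3, day 7, day 14 and day 28 after bleomycin was given through the trachea. All 5 groups, sham included, carry both alleles. The paper's scheme of this experiment includes tamoxifen as well as bleomycin. Each time point is 1 library, the number of mice in a library is not given in the sources used here, and no test between time points was possible. Bleomycin is a drug that breaks DNA and injures the alveolar lining. Before capture, every lung was perfused, digested with collagenase at 37 °C and freed of red cells.

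Immediate early genes are transcribed within minutes of a signal, without new protein being made first. Growth factors, stretch, inflammatory ligands and cell isolation itself can switch them on through MAP kinases, serum response factor with its ETS partners, and CREB. *Egr1* encodes a zinc finger transcription factor. The products of *Fos*, *Fosb*, *Jun* and *Junb* pair to form AP-1, and ATF3 is a related factor of the stress response. *Nr4a1* encodes an orphan nuclear receptor that nonclassical monocytes need. *Dusp1* encodes a phosphatase that switches MAP kinases off, *Ier3* a regulator of survival downstream of NF-κB, and *Ier2* a small nuclear protein. In tissue macrophages these genes are known both as part of a response and as a mark of warm digestion.

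The members lie apart in the mouse genome (GRCm38). *Egr1* is on chromosome 18 from 34859823 to 34864984, *Fos* on chromosome 12 from 85473890 to 85477273 and *Fosb* on chromosome 7 from 19302696 to 19310051. *Jun* is on chromosome 4 from 95049034 to 95052222, *Junb* on chromosome 8 from 84974484 to 84978718 and *Ier2* on the same chromosome from 84661331 to 84662852. *Atf3* is on chromosome 1 from 191170296 to 191218039 and *Nr4a1* on chromosome 15 from 101254269 to 101274795. *Dusp1* and *Ier3* share chromosome 17, from 26505590 to 26562128 and from 35821684 to 35822923. All 10 are protein-coding, and the counted reads come from the 3′ end of their transcripts.

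Of 52800 barcodes in the 5 libraries, 44772 passed the limits on genes, UMIs (unique molecular identifiers, each standing for 1 captured RNA molecule) and mitochondrial UMIs, and 36296 of these were placed in 1 of 15 classes by 4 to 6 markers each. Markers held out of the gates were highest in their own class for 40 of 49 and first or second for 46, and 16 to 31 barcode sequences were shared between any pair of libraries. Total UMIs per library were between 89769386 and 167506186. The day 7 library holds exactly 10000 barcodes and starts at 4624 UMIs, where the others start at 500 to 502. The median share of mitochondrial UMIs was lowest at day 3, 2.85%, against 3.99% to 5.52% in the other libraries. The club cell transcript *Scgb1a1*, which macrophages do not make, was at 84.9 CPM (UMIs of a gene per 1e+06 UMIs of the class) in AMs of day 3 and at 599 CPM in those of sham. A class level below is the sum of a gene's UMIs over the cells of the class, in CPM, with an exact 95% Poisson interval that covers counting error only. Levels are compared between cells and libraries and not between genes.

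What the members share in sequence is shown by their promoters, because CREB and ATF proteins bind the letters TGACG. RefSeq promoter windows of GRCm38.p6, from 250 bases before to 50 after the start site, were at hand for 8 members. TGACG stood on one strand or the other in 6 of the 8 and in 20.8% of all 32851 windows. The copy nearest to the start site of each gene, with flanks, is printed on the strand of the gene, with TGACG or its reverse complement CGTCA in capitals.
Fos, chr12:85473814-85473838, plus strand: ttccgcccagTGACGtaggaagtcc
Fosb, chr7:19310091-19310115, minus strand: gagttgcgggTGACGcaagcgcggg
Junb, chr8:84978840-84978864, minus strand: ttcctgacagTGACGcgagccgcct
Atf3, chr1:191183326-191183350, minus strand: aatagcattaCGTCAgcctgggatt
Nr4a1, chr15:101266796-101266820, plus strand: cctctccatgCGTCAcggagcgctt
Dusp1, chr17:26508598-26508622, minus strand: gggcgggtgaCGTCAccgcccggtc

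The letters begin 66 bases upstream of the start site in *Fos*, 60 in *Fosb*, 106 in *Junb*, 7 in *Atf3*, 40 in *Nr4a1* and 140 in *Dusp1*. *Nr4a1* holds 4 copies, *Dusp1* 3 and *Fos* 2. Those of *Dusp1* include the palindrome TGACGTCA, overlapping the copy printed, which is in 1.79% of all windows and in no other member. The AP-1 letters TGACTCA and the serum response element were in none of the 8 windows and in 5.20% and 1.63% of all windows. Sequence outside the windows was not searched, and *Egr1* and *Ier2* had no window. Whether the members lack these elements can therefore not be read from the windows. These matches are a description of the letters only.

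*Egr1* was at 477 CPM in sham AMs and at 119 CPM at day 3, 266 CPM at day 7, 347 CPM at day 14 and 62.1 CPM at day 28. Its level was therefore lowest at day 28 and not at day 3. The summed level of the 5 AM markers held out of the gates also differed in AMs. It was 2250.5 CPM in sham, then 1287, 1313, 1081 and 1454 CPM in the bleomycin libraries in order of day. The paper reports that cells derived from monocytes join the alveolar macrophages after injury. AMs of different libraries may thus differ in origin, and the part of this in the ratios of AMs was not tested. After each cell was thinned to 2000 UMIs, 50.3% of sham AMs held an *Egr1* UMI (95% interval 49.0 to 51.6), against 12.7% (10.3 to 15.5) at day 3 and 8.78% (7.86 to 9.77) at day 28. Without thinning the shares were 84.8%, 36.4% and 25.3%. T cells of sham and day 3, whose *Egr1* level was far lower, gave thinned shares of 7.05% and 5.14%.

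C1q macrophages are the macrophages marked by complement C1q genes. Their *Egr1* was at 1235 CPM in sham, 131 CPM at day 3, 701 CPM at day 7, 691 CPM at day 14 and 373 CPM at day 28. The sham value comes from 50 cells. These cells also carried 3804 CPM of the haemoglobin gene *Hbb-bs*, where C1q macrophages of day 3 carried 1.76 CPM. The part of these cells' makeup in the difference was not tested.

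In neutrophils *Egr1* was at 934 CPM in sham and 551 CPM at day 3, then at 825 CPM at day 7, 2771 CPM at day 14 and 3066 CPM at day 28. Neutrophils thus had their highest *Egr1* in the library in which AMs had their lowest. The thinned share of neutrophils with an *Egr1* UMI was 68.8% in sham, 51.5% at day 3 and 94.1% at day 28.

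**Figure D1:**
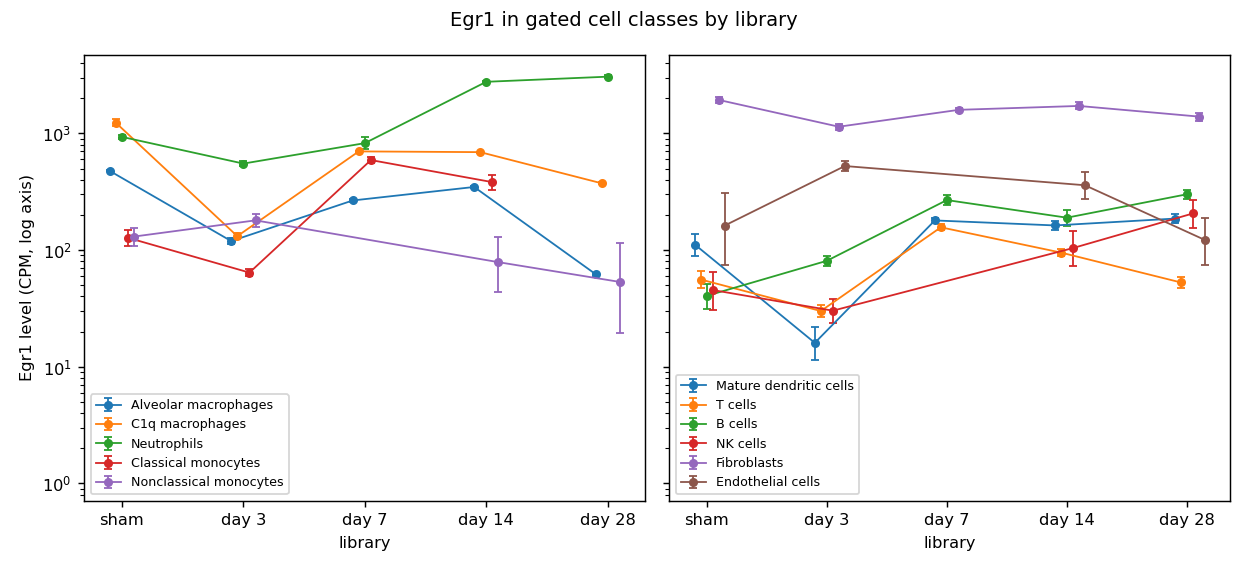
*Egr1* level (CPM, log axis) in gated classes of at least 20 cells against the library, with exact 95% Poisson intervals for counting error. AMs go from 477 CPM in sham to 119 CPM at day 3 and 62.1 CPM at day 28, whereas neutrophils go from 934 CPM to 551 CPM and 3066 CPM.

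Fibroblasts, which the label of immune cells does not cover but a few of which were captured, had *Egr1* at 1937 CPM in sham (39 cells), 1141 CPM at day 3, 1593 CPM at day 7, 1720 CPM at day 14 and 1394 CPM at day 28. Their day 3 value was the lowest of the 5. Endothelial cells went the other way, from 162 CPM in sham, which is 9 UMIs in 34 cells, to 525 CPM at day 3. Their summed level of AM markers in sham was 76.1% of that in AMs. Over all libraries, the marker *Fabp4* was at 482 CPM in endothelial cells and at 515 CPM in AMs. The 76.1% may therefore count RNA of the endothelial cells themselves. In sham, fibroblasts and endothelial cells both fall under the 50 cells asked for in each library. They were therefore left out of the counts against sham that follow.

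Among classes of at least 50 cells, sham *Egr1* was highest in C1q macrophages and type 1 conventional dendritic cells (1127 CPM), followed by neutrophils and type 2 conventional dendritic cells (854 CPM), with overlapping intervals within each of these pairs. AMs came next. Nonclassical monocytes (130 CPM), classical monocytes (127 CPM) and mature dendritic cells (112 CPM) could not be ordered, and neither could T cells (55.9 CPM), natural killer (NK) cells (45.4 CPM) and B cells (40.5 CPM). At day 3, AMs and C1q macrophages had overlapping intervals, although their sham levels differed.

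Day 3 was set against sham in 9 classes, and a gene was compared where it reached 50 CPM in either library. *Egr1* passed this filter in 8 classes, was lower at day 3 in 6 of them and lay at least 2-fold lower in 3. These include AMs, in which it was chosen. Without AMs it was lower in 5 of 7 classes and at least 2-fold lower in 2. Of all gene and class pairs outside AMs, 50.3% were lower by any amount and 4.01% at least 2-fold. *Egr1* reached 50 CPM in sham alone in T cells (55.9 and 30.0 CPM) and mature dendritic cells (112 and 16.0 CPM). It did so at day 3 alone in B cells (40.5 and 80.8 CPM). The direction in these classes thus followed from how they passed the filter. The log2 ratio of day 3 to sham was -2.00 in AMs (95% interval -2.08 to -1.92), -3.23 in C1q macrophages (-3.36 to -3.10) and -2.80 in mature dendritic cells (-3.39 to -2.24). Mature dendritic cells, which carry antigen to lymph nodes, had 85 *Egr1* UMIs in 50 sham cells and 39 in 178 cells of day 3.

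The lower level was smaller in 3 further classes. The log2 ratio was -0.99 in classical monocytes (-1.23 to -0.75), -0.90 in T cells (-1.19 to -0.60) and -0.76 in neutrophils (-0.85 to -0.67). In classical monocytes, the recruited cells of early injury, it became 0.24 under a stricter gate and -0.31 when CPM was averaged over cells. Its direction thus depended on the gate, and its size on both choices. With each class scaled to a median ratio of 1, T cells and classical monocytes also passed 2-fold, which made 5 classes.

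*Egr1* was not lower in the other 2 classes. B cells had 40.5 CPM in sham and 80.8 CPM at day 3, a log2 ratio of 1.00 (0.61 to 1.40) that lay just under the 2-fold limit. The ratio was 0.50 when only cells with at least 4624 UMIs, the lowest count of day 7, were used. This floor left 100 of 378 B cells in sham and 525 of 669 at day 3. Nonclassical monocytes, the cells that patrol vessels, had 130 CPM and 180 CPM, a log2 ratio of 0.46 (0.14 to 0.78). NK cells, under the filter at 45.4 CPM and 30.2 CPM, had an interval that held 0 (-1.22 to 0.08).

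RNA of AMs in the other classes bears on the low levels among these. The summed level of the 5 held-out AM markers in sham B cells was 6.86% of that in sham AMs, and at this ratio AM-derived RNA would carry 32.7 CPM of *Egr1*, against 40.5 CPM measured. The same estimate was 60.6 CPM in sham mature dendritic cells, 27.8 CPM in NK cells, 23.8 CPM in T cells and 22.3 CPM in classical monocytes. At day 3 it was 5.02 CPM in mature dendritic cells and at most 1.26 CPM in T, B and NK cells. In sham neutrophils it was 45.7 CPM of the 934 CPM measured and in sham C1q macrophages 34.4 CPM of 1235 CPM. The estimate for nonclassical monocytes was 121 CPM of 130 CPM, but the marker *Pparg* was at 72.2 CPM in that class and at 112 CPM in AMs, so that this estimate may count RNA of the class itself. As a share of the sham *Egr1* measured, the estimate was 80.8% in B cells, 61.4% in NK cells, 54.3% in mature dendritic cells and 42.5% in T cells. It was 17.5% in classical monocytes, 4.90% in neutrophils and 2.79% in C1q macrophages. The estimate takes *Egr1* RNA from AMs alone, and the source of the *Egr1* measured in these classes was not tested.

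Among the other members outside AMs, *Fosb* and *Ier2* were lower at day 3 in 7 of 8 classes, *Fos* and *Junb* in 6 and *Nr4a1* in 5. *Dusp1* was lower in 4 of 8, *Jun* in 3 of 8, *Atf3* in 3 of 6 and *Ier3* in 0 of 5. Of all gene and class pairs outside AMs, 50.3% were lower. Over the 10 members, 84 pairs of a member and a class passed the filter, of which 10 were at least 2-fold lower and 5 at least 2-fold higher. Outside AMs it was 9 and 4 of 74 pairs, where 4.01% and 7.76% of all gene and class pairs were. *Nr4a1* made up 3 of the 9 lower pairs and *Egr1* 2. By class, 5 of the 9 were in C1q macrophages (beside 8.87% of their genes) and 2 in mature dendritic cells (beside 5.04%). Both of these classes have 50 sham cells. Classical monocytes (beside 7.02%) and T cells (beside 1.41%) had 1 each.

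**Figure D2:**
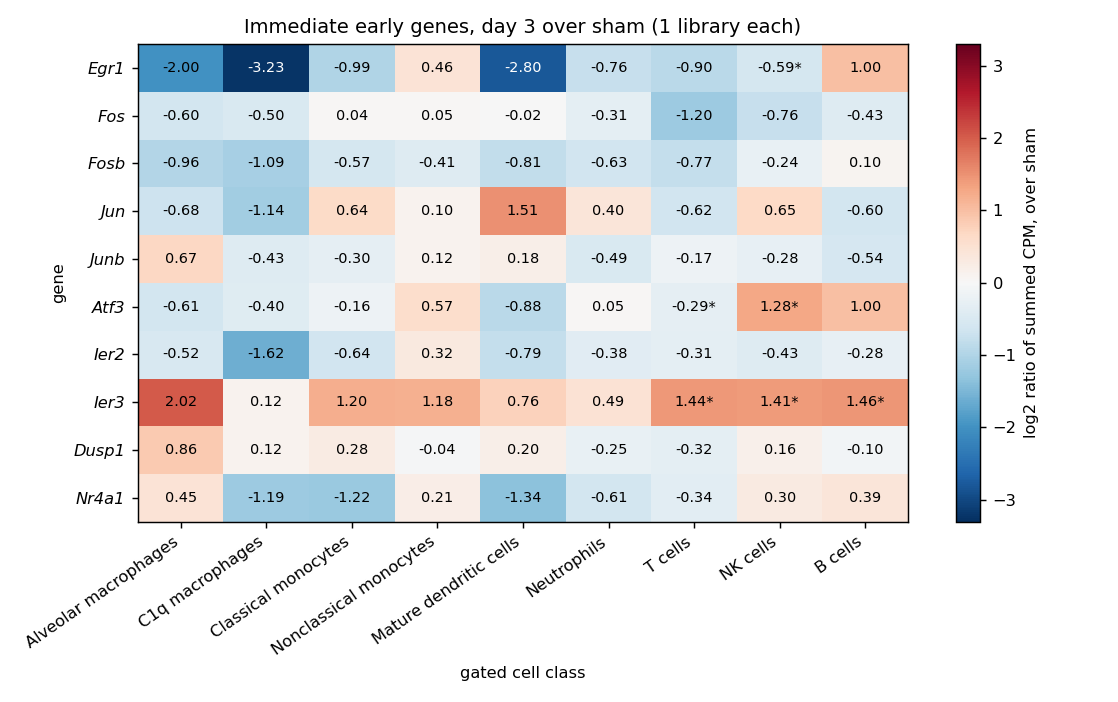
Log2 ratio of summed CPM, day 3 over sham, for the 10 members (rows) in 9 gated classes (columns), with 1 library on each side. Stars mark pairs under 50 CPM in both libraries. *Egr1* is darkest blue in C1q macrophages (-3.23), mature dendritic cells (-2.80) and AMs (-2.00), and *Ier3* is above 0 in every class.

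The AP-1 genes differed in how many classes were lower. *Fosb* was lower at day 3 in 8 of 9 classes, with a log2 ratio of -0.96 in AMs and -1.09 in C1q macrophages (-0.68 with CPM averaged over cells), and its median over the classes was -0.63. *Fos* was lower in 7 of 9 with a median of -0.43, and its lowest ratio was in T cells, where it went from 415 CPM to 180 CPM (-1.20, interval -1.31 to -1.09), or -0.95 with CPM averaged over cells. *Junb* was lower in 6 of 9 classes with a median of -0.28. It lay within 2-fold in all 9, between -0.54 and 0.67, and was higher at day 3 in AMs (724 CPM and 1154 CPM).

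*Jun* went in opposite directions in different classes. It was at 1545 CPM in sham C1q macrophages and at 703 CPM at day 3, a log2 ratio of -1.14 (-1.23 to -1.04), or -0.67 with CPM averaged over cells. In mature dendritic cells it was at 66.9 CPM and 191 CPM, a log2 ratio of 1.51 (1.10 to 1.96), and these are the cells in which *Egr1* was lowest at day 3. *Atf3* passed the filter in 7 classes and ranged from -0.88 in mature dendritic cells to 1.00 in B cells, which became -0.092 with the day 7 floor.

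*Ier3* was higher at day 3 in all 6 classes in which it passed the filter, with every interval above 0. In AMs it was at 57.9 CPM in sham and 235 CPM at day 3, a log2 ratio of 2.02 (1.95 to 2.09), so that in the same cells and libraries 1 member was about as far above its sham level as *Egr1* was below. Classical monocytes had 467 CPM and 1073 CPM (log2 ratio 1.20, or 0.71 after thinning), and nonclassical monocytes 31.4 CPM and 71.4 CPM (1.18). The latter passed the filter through day 3 alone. C1q macrophages differed least, with 1034 CPM in sham (log2 ratio 0.12).

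*Nr4a1* was lower in C1q macrophages (-1.19, or -0.70 after thinning), classical monocytes (-1.22, from 714 CPM to 305 CPM) and mature dendritic cells (-1.34), and by less than 2-fold in neutrophils (-0.61) and T cells (-0.34). It was higher in AMs (0.45), B cells (0.39) and nonclassical monocytes (0.21), and its median over the 9 classes was -0.34. *Dusp1* lay between -0.32 and 0.86 and was highest relative to sham in AMs, where it was at 309 CPM and 562 CPM. *Ier2* was lower in 8 of 9 classes, with the lowest ratio in C1q macrophages (-1.62), and was 0.32 in nonclassical monocytes.

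In AMs alone, 1 member was at least 2-fold lower at day 3 and 1 at least 2-fold higher, beside 2.64% and 5.26% of the 3444 genes compared. The lower one is *Egr1*, for whose value here the members were chosen, so nothing is read from these shares. The median over the members was -0.56 and over all genes -0.08. In C1q macrophages 5 members were at least 2-fold lower and 0 higher, with 8.87% and 10.3% of all genes. In nonclassical monocytes 0 members were lower and 1 was higher, beside 2.21% and 5.5% of genes.

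Other genes of the immediate early response were taken as a list of 42, of which 41 were found in the files and *Cebpd* was not analysed here. In AMs, 33 of the 41 passed the filter, and their median log2 ratio was 0.24. Of these 33, 2 were at least 2-fold lower at day 3 and 8 at least 2-fold higher, beside 2.64% and 5.26% of all genes. The lowest were *Klf2* (305 CPM and 92.6 CPM, log2 ratio -1.72), *Rhob* (184 CPM and 90.9 CPM, -1.02) and *Klf4* (476 CPM and 244 CPM, -0.96). *Klf2* and *Klf4* encode Krüppel-like factors of quiescent cells, and *Rhob* a small GTPase. The highest were *Gadd45b* (19.7 CPM and 207 CPM, 3.39), *Socs3* (18.1 CPM and 80.4 CPM, 2.15) and *Nfkbia* (169 CPM and 697 CPM, 2.04), which act in stress signalling, as a brake on STAT3 and as the inhibitor of NF-κB. In C1q macrophages 7 of 33 were at least 2-fold lower and 4 higher, beside 8.87% and 10.3% of all genes.

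The heat shock genes, which warm digestion is also known to raise, were given as a further list of 12. In AMs 7 passed the filter and 0 differed by 2-fold at day 3, with a median of -0.08. The lowest were *Hspd1* (-0.42), *Hsp90aa1* (-0.38) and *Hspe1* (-0.10), and the highest *Dnaja1* (0.81), *Hspa5* (0.65) and *Hspa8* (0.55). No class had a heat shock gene at least 2-fold lower at day 3, and in most classes some were at least 2-fold higher. They were 4 of 9 in T cells (median 0.80, beside 6.2% of all genes) and 3 of 9 in B cells (median 0.92, beside 3.89%). In NK cells it was 3 of 9 (beside 4.37%) and in classical monocytes 3 of 9 (beside 14.5%). In nonclassical monocytes it was 3 of 8 (beside 5.5%) and in mature dendritic cells 3 of 8 (beside 8.91%). In C1q macrophages it was 1 of 9 (beside 10.3%) and in neutrophils 0 of 6 (beside 7.01%). The 13 kinases and factors of the route to these genes, such as *Srf*, *Elk1* and *Creb1*, had 0 of 6 at least 2-fold lower or higher in AMs. Digestion time and handling were not recorded per library in the sources used here, and with 1 library per time point, handling and time after injury cannot be told apart.

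At day 7, 89 pairs of a member and a class could be compared in 9 classes, of which 8 were at least 2-fold lower than sham and 13 higher, where 5.64% and 5.54% of all pairs were. *Egr1* was then at least 2-fold lower in 0 classes and at least 2-fold higher in 3, which were classical monocytes (591 CPM, log2 ratio 2.21), B cells (268 CPM, 2.73) and T cells (157 CPM, 1.49, or 0.86 with CPM averaged over cells). *Ier2* was lower than sham in all 9 classes at day 7 and again in all 9 at day 14, where 53.1% and 46.8% of all pairs were lower. *Dusp1* in AMs was at 920 CPM at day 7, a log2 ratio of 1.58. At day 14, 5 of 85 pairs were at least 2-fold lower and 8 higher, beside 4.06% and 7.11% of all pairs.

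Day 28 gave the largest number of pairs past 2-fold. Of 75 pairs in 8 classes, 17 were at least 2-fold lower than sham and 12 higher, where 5.75% and 4.91% of all pairs were. The lower pairs were in AMs (5), C1q macrophages (8), mature dendritic cells (2, beside 4.89% of their genes) and T cells (2, beside 2.77%), and the higher pairs in neutrophils (4), NK cells (4, beside 6.24%), B cells (2, beside 4.63%), AMs (1) and mature dendritic cells (1, beside 3.33%). The same sham library stands under the comparisons of every day, so that they are not independent.

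**Figure D3:**
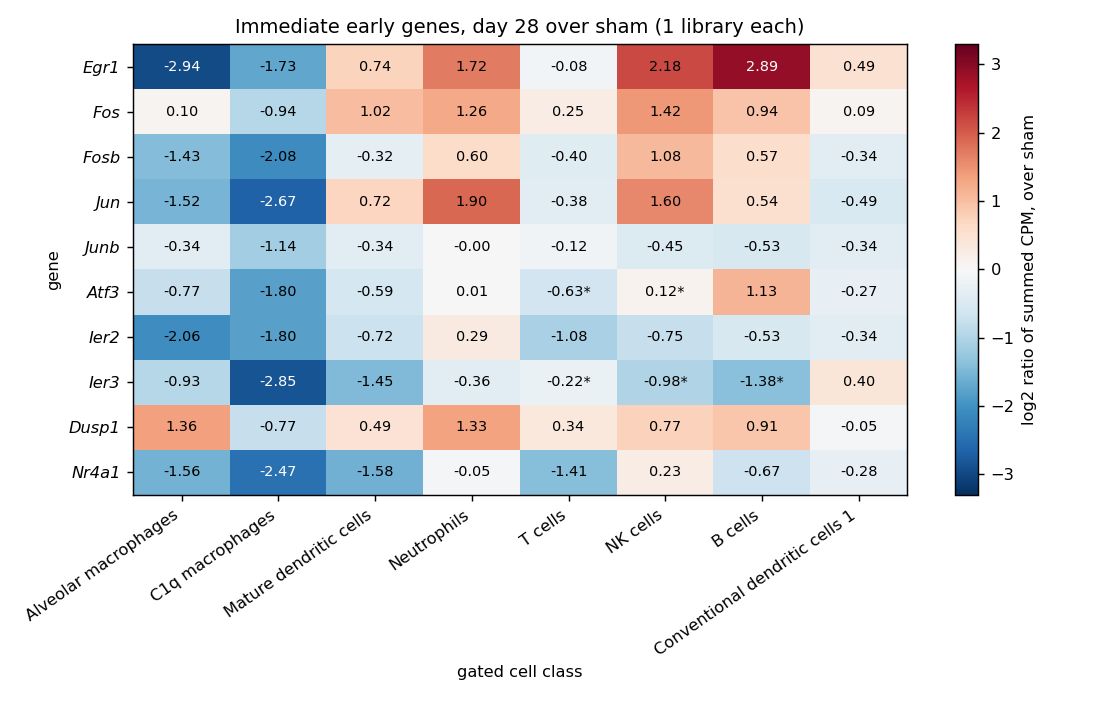
Log2 ratio of summed CPM, day 28 over sham, for the 10 members (rows) in 8 gated classes (columns), with 1 library on each side and stars as for day 3. Macrophage columns are mostly blue, with *Egr1* at -2.94 in AMs, and neutrophil and NK columns mostly red, with *Egr1* at 1.72 and 2.18.

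In AMs of day 28, *Egr1* (-2.94), *Ier2* (-2.06), *Nr4a1* (-1.56), *Jun* (-1.52) and *Fosb* (-1.43) were at least 2-fold lower than in sham, beside 4.1% of genes, and *Dusp1* was higher (309 CPM and 791 CPM, 1.36), beside 3.14%. In C1q macrophages every member was below sham and 8 were at least 2-fold lower, beside 13.9% of genes. Their lowest ratios were those of *Ier3* (143 CPM, -2.85), *Jun* (243 CPM, -2.67) and *Nr4a1* (91.9 CPM, -2.47). Levels were lower at day 28 than at day 3 for 8 of 10 members in AMs and for 9 of 10 in C1q macrophages, *Egr1* of the latter being the exception. The share of all genes lower at day 28 than at day 3 was not computed, so nothing is read from these counts.

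Neutrophils of day 28 had *Jun* at 396 CPM (log2 ratio 1.90), *Egr1* at 3066 CPM (1.72), *Dusp1* at 10075 CPM (1.33) and *Fos* at 7884 CPM (1.26), beside 5.96% of genes at least 2-fold higher. When only cells with at least 4624 UMIs, the cell filter of day 7, were counted in each library, 6 of 448 neutrophils of day 28 and 46 of 1095 of sham were left, and the ratios were 0.05, 0.93, 0.36 and 0.45. NK cells, of which there were 67, had *Egr1* at 206 CPM (2.18) and *Fos* at 741 CPM (1.42). Averaging CPM over cells gave 0.92 and 0.65, and the floor of day 7, which left 16 of the 67 cells, gave 3.79 and 2.90. *Fosb*, at 1.08, turned to -0.51 without predicted doublets. B cells had *Egr1* at 301 CPM (2.89), where AM RNA could carry 4.80 CPM, and the ratio was 1.56 with the day 7 floor. T cells had 52.7 CPM, within the counting error of sham.

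**Figure D4:**
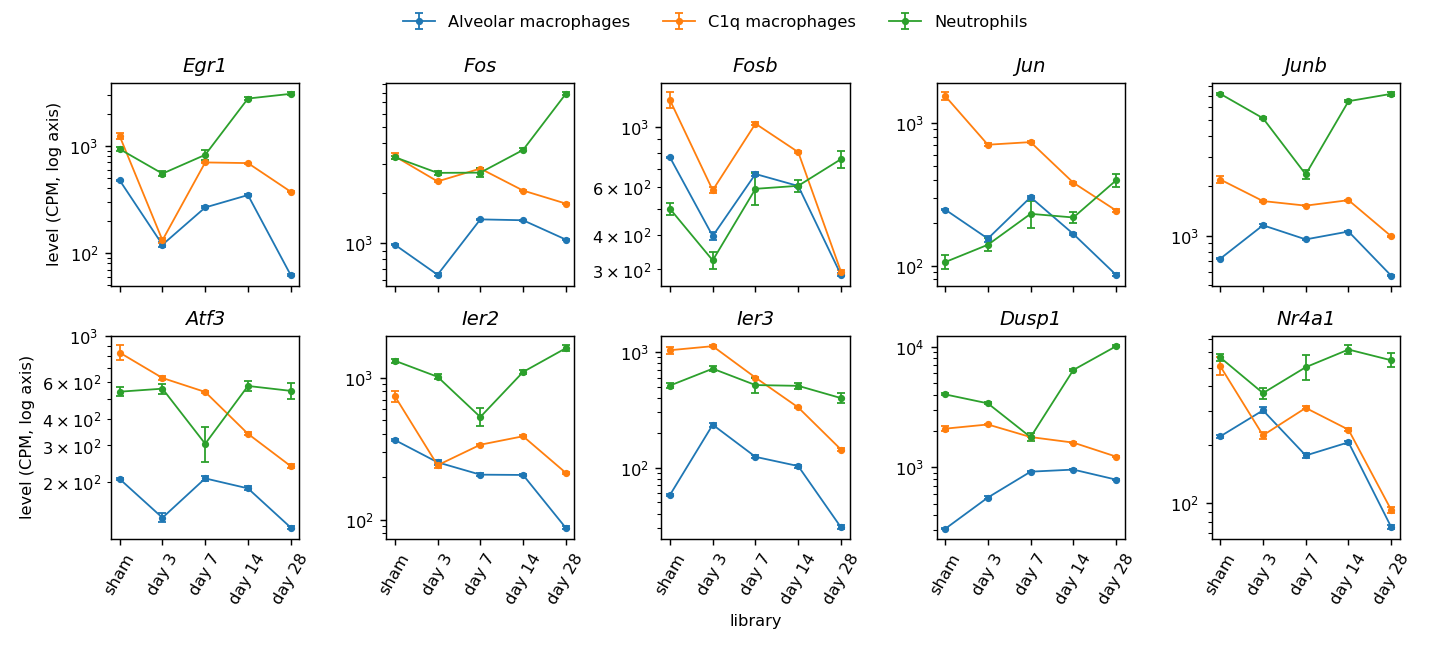
Level (CPM, log axis) of each member in AMs, C1q macrophages and neutrophils by library, with exact 95% Poisson intervals for counting error. *Egr1* has its lowest value at day 3 in neutrophils (551 CPM) and C1q macrophages (131 CPM) and at day 28 in AMs (62.1 CPM), and *Ier3* has its highest value at day 3 in all 3 classes.

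Whether members were found in the same cells was seen by splitting AMs on an *Egr1* UMI after thinning. In sham, 2830 AMs held one and 2797 did not, and the other members were higher in the first in 8 of 9, with a median log2 ratio of 0.36, where 46.8% of all genes were higher. *Ier3* was the exception (57.2 CPM and 57.9 CPM). At day 3, 85 of 667 AMs held one, all 9 members were higher in them, where 52.6% of all genes were, and 3 (*Jun*, *Ier2* and *Dusp1*) by at least 2-fold, beside 3.33% of genes. *Ier2* was at 506 CPM with and 198 CPM without an *Egr1* UMI (log2 ratio 1.36, interval 0.98 to 1.72), and *Fos* at 1194 CPM and 625 CPM (0.94). The cells with and without one had similar depth, with medians of 15290 and 14564.5 UMIs before thinning.

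At day 28, 304 of 3463 AMs held an *Egr1* UMI and 8 of 8 members tested were higher in them, with a median log2 ratio of 0.87, where 55.7% of all genes were higher. In C1q macrophages all 9 were higher in each of the 4 bleomycin libraries, with medians of 1.07, 0.67, 0.80 and 1.38, where 49%, 48.1%, 57% and 59.4% of all genes were higher. The 90 C1q macrophages of day 3 with an *Egr1* UMI had a median mitochondrial share of 3.39% and 12652.5 UMIs, and the 516 without had 1.65% and 14714.5 UMIs, and the part of these differences in the result was not tested. In neutrophils the medians were 0.11 in sham and 0.23 at day 3.

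Levels of the members varied together across classes and libraries to different degrees. Over 55 points (14 classes, each centred, on the log2(CPM + 10) scale), Pearson's r with *Egr1* was 0.75 for *Fosb*, the highest of all 3104 genes compared, 0.62 for *Fos* and -0.04 for *Ier3*. Outside the members, *Chd4* (0.66), *Zfp36l1* (0.66), *Egr2* (0.63) and *Rpl37* (0.61) were among the 5 genes most like *Egr1*. The genes most like the mean of the members were *Zfp36* (0.78), *Nfkbiz* (0.76), *Kdm6b* (0.72), *Trib1* (0.69) and *Klf6* (0.64). Points of 1 library share its depth, handling and free RNA. The 5 genes most like *Egr1* changed with the libraries used, since at most 1 of them stayed among the first 5 when sham or day 3 was left out and 0 when day 7 was.

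Differences between classes could be tested, because each library holds both classes of a pair. UMIs were summed per class and library and tested across all genes with edgeR's quasi-likelihood test, with library as a block. Each library is another time point, so the error includes any change of the class difference with time.

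AMs had lower levels than C1q macrophages of 9 of the 10 members in the 5 libraries, beside 19.1% of 13867 genes that were lower, and the median log2 fold change was -1.37, against -0.02 for all genes. *Ier3* differed most (110 and 646 CPM on average, log2 fold change -2.63 ± 0.32 SE, edgeR adjusted p = 0.000816), followed by *Jun* (-1.89 ± 0.21, edgeR adjusted p = 0.000513) and *Atf3* (-1.61 ± 0.19, edgeR adjusted p = 0.000676). *Egr1* was lower in AMs in 5 of 5 libraries (254 and 626 CPM, -1.43 ± 0.34, edgeR adjusted p = 0.0128). *Nr4a1* did not pass (-0.55 ± 0.22, edgeR adjusted p = 0.0881), and passed without day 3 (-0.79). *Ier2* no longer passed without day 28 (edgeR adjusted p = 0.0520).

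Nonclassical and classical monocytes had at least 20 cells each in sham, day 3 and day 14. *Nr4a1* was higher in nonclassical monocytes in 3 of 3 libraries (1690 and 571 CPM on average, log2 fold change 1.60 ± 0.34, edgeR adjusted p = 0.00694), beside 7.74% of 8079 genes that were higher. *Ier3* was lower (43.0 and 671 CPM, -3.99 ± 0.27, edgeR adjusted p = 3.23e-06), beside 7.76%. These were the 2 members that passed. *Nr4a1* did not pass without day 14, whose groups are 37 and 44 cells (1.83, edgeR adjusted p = 0.0843), and 6 members passed without day 3.

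T cells had lower levels than B cells of 5 members, beside 16% of 11079 genes. *Nr4a1*, a readout of antigen receptor signalling in lymphocytes, was at 105 CPM in T cells and 273 CPM in B cells on average (log2 fold change -1.64 ± 0.16, edgeR adjusted p = 1.73e-05). *Atf3* (-2.28 ± 0.30, edgeR adjusted p = 0.000176), *Egr1* (-1.31 ± 0.32, edgeR adjusted p = 0.00962), *Fos* (-0.73 ± 0.16, edgeR adjusted p = 0.00420) and *Fosb* (-0.62 ± 0.18, edgeR adjusted p = 0.0231) were the others. *Egr1* was lower in T cells than in B cells in each of the 4 bleomycin libraries, and in sham the intervals of both classes overlapped (55.9 and 40.5 CPM). *Fosb* no longer passed when day 3, day 7 or day 28 was left out (edgeR adjusted p from 0.0630 to 0.0935).

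**Figure D5:**
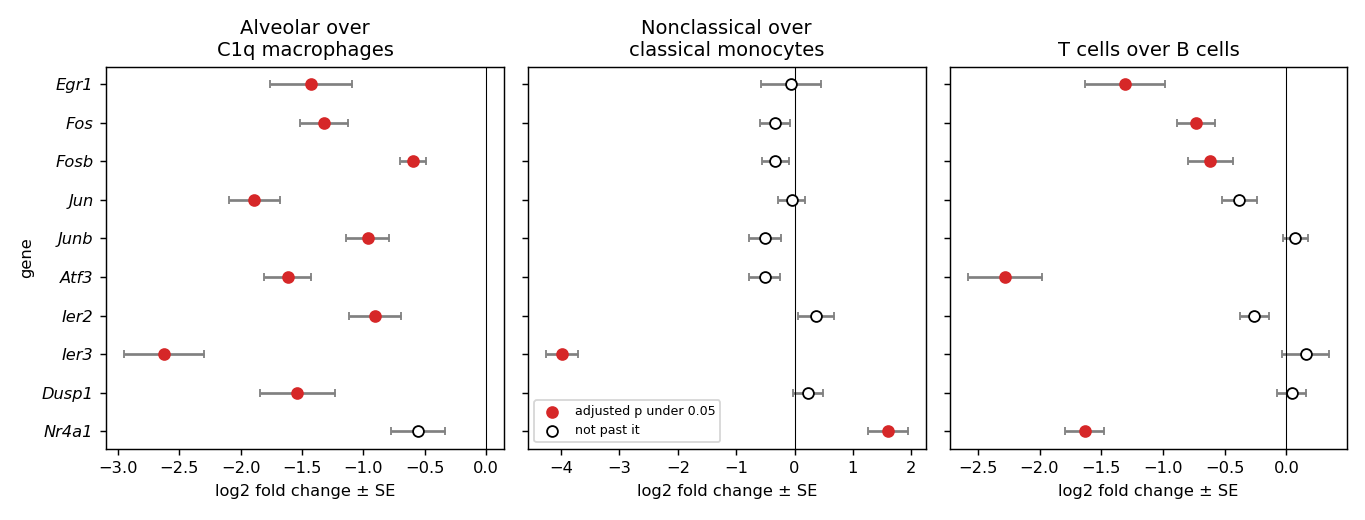
Log2 fold change of each member (rows) with its standard error in 3 comparisons between classes, from edgeR with library as a block over 5, 3 and 5 libraries. Filled points have an adjusted p under 0.05, which are 9 of 10 members for AMs against C1q macrophages, *Ier3* and *Nr4a1* for monocytes, and 5 members for T cells against B cells.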

How the data were processed

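The deposited values are UMI counts per gene and barcode, which the authors made with Cell Ranger 6.0.0 on mm10 (submitters' processing notes) from 10x 3′ libraries, 1 per time point, with no normalization. Members and gene lists were chosen with earlier results of these data known. A barcode was kept if it held 300 to 8000 genes and 800 to 60000 UMIs, of which less than 15% were mitochondrial. Each was placed in a class when its mean scaled marker level was at least 0.25, at least 2 markers were detected and the next class scored at most 0.6 of the first, a rule set after other gates had been tried on these data. Barcodes of more than 1 class (6001) or of none (2475) were left out. This loss was uneven, since 92.2% of the kept sham barcodes were placed in a class. The bleomycin libraries, in order of time, had 75.5%, 71.4%, 84.0% and 82.2%. Barcodes of more than 1 class numbered 344 in sham, against 1635 and 1963 in the first 2 bleomycin libraries. The part of this uneven loss in the ratios was not tested. Doublets were otherwise kept, and removed with Scrublet (scanpy 1.11.5) as an alternative. Levels are UMIs summed per class and library in CPM. Ratios need 50 cells in each library and 50 CPM in either, carry exact conditional binomial intervals, and are called at 2-fold. Where 1 library was at 0 UMIs, 3 counts per library stood in. Intervals cover counting error only. Classes were compared with edgeR 4.0.16 (TMM, quasi-likelihood, library as a block, R 4.3.3) where both had 20 cells, with DESeq2 1.42.0 as an alternative, with the Benjamini-Hochberg adjustment made across every gene tested. Whether the samples of a library are separate animals is not stated, so p-values measure the spread between libraries. The ratios and tests were checked on simulated counts. Named genes were all members, the 3 lowest and 3 highest of each list in AMs at day 3, and the 5 genes most like *Egr1* and like the mean of the members, of which 1 is not reported here. Lists were the 42 other immediate early genes, 12 heat shock genes and 13 route genes. Gene positions are from GENCODE and promoters from RefSeq, both of GRCm38. No sequence of *Egr1* was used.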

Additional observations from a re-analysis of the deposited data

Results flagged for a closer look

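Members were picked out where they were at least 2-fold lower than sham in one class and at least 2-fold higher in another at the same day, given by the lowest and the highest log2 ratio. With 1 library per time point these differences between classes were not tested. *Egr1* at day 28 was at -2.94 in AMs and 2.89 in B cells. *Fosb* at day 28 was at -2.08 in C1q macrophages and 1.08 in NK cells, the latter of which changed direction under 4 alternatives. *Jun* did so at every day, with -1.14 in C1q macrophages and 1.51 in mature dendritic cells at day 3. At day 7 *Jun* was at -1.35 in type 1 conventional dendritic cells and 1.61 in mature dendritic cells. At day 14 it was at -2.02 in C1q macrophages and 1.64 in NK cells, and at day 28 at -2.67 in C1q macrophages and 1.90 in neutrophils (0.05 with the day 7 floor). *Atf3* was at -1.29 in C1q macrophages and 2.83 in B cells at day 14, and at -1.80 and 1.13 in the same classes at day 28 (0.79 in B cells with a mitochondrial limit of 10%). *Ier3* was at -1.06 in type 2 conventional dendritic cells (-0.75 without doublets) and 2.30 in T cells at day 7, and at -1.64 in C1q macrophages and 1.73 in type 1 conventional dendritic cells at day 14. *Dusp1* at day 7 was at -1.18 in neutrophils, of which there were 52 (-0.47 with the day 7 floor), and 1.58 in AMs. Ratios of C1q macrophages rest on 50 sham cells.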

How the results depend on the processing

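Of 78 pairs of a member and a class at least 2-fold from sham over the 4 days, 2 changed direction under some alternative. They were *Atf3* in B cells of day 3 (-0.092 with the day 7 floor) and *Fosb* in NK cells of day 28 (-0.51 without doublets, -0.38 with CPM averaged over cells, -0.14 with the stricter gate, -0.11 after thinning). Averaging CPM over cells left 56 of 74 past 2-fold and thinning 62 of 75, and the other alternatives at least 69. The log2 ratio of *Egr1* at day 3 lay between -2.06 and -1.90 in AMs, between -3.40 and -2.82 in C1q macrophages and between -3.36 and -2.15 in mature dendritic cells over 9 alternatives. In B cells it lay between 0.50 and 1.09 and in nonclassical monocytes between 0.30 and 0.59. The median ratio of all genes at day 3 lay between -0.09 and 0.12 over the classes. Scaling to it moved the classes with *Egr1* at least 2-fold lower from 3 to 5, and the other immediate early genes lower in AMs from 2 to 1, as thinning did. A level filter of 10 CPM, or none, moved the member and class pairs higher at day 3 from 5 to 9, and no filter moved the heat shock genes higher in AMs from 0 to 2, since more genes are then compared. Of the 5 genes most like *Egr1*, 0 stayed without centring and 0 to 4 with a library left out. For the mean of the members it was 2 without centring and 3 to 4. Without the library block, 6 members passed between AMs and C1q macrophages, 1 between monocytes and 2 between T and B cells. Leaving out a library gave 8 to 10, 1 to 6 and 4 to 6 members. Fold changes near 0 turned sign between monocytes for *Egr1* (from -0.06 to 0.14 without doublets, 0.74 with the stricter gate, 0.99 with the day 7 floor, and -0.88 to 0.75 with a library left out), *Jun* (0.037 with the stricter gate, -0.16 to 0.064 with a library left out) and *Ier2* (-0.082 to 0.73 with a library left out). Between T and B cells they did for *Ier3* (-0.0095 without doublets) and *Dusp1* (-0.027 with the day 7 floor, -0.047 without sham). The causes were not tested. Between time points, no paired analysis was possible because each is 1 library with no replicate numbers, whereas classes were paired within libraries. Depth limits the neutrophils, of which the day 7 floor left 46 of 1095 in sham and 6 of 448 at day 28.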
